A study of Mus musculus with 6 samples.

Results

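The mRNA levels of genes for protein folding in the endoplasmic reticulum (ER) and for secretion were examined in the mouse left ventricle under pressure overload. A list of 50 genes was taken by name, covering lumenal chaperones, the calnexin cycle with calcium-binding proteins, disulfide formation, prolyl isomerases, translocation into the ER, export and retrieval, and the sensors and transcription factors of the ER stress response. A gene was measured if a row of the array table carried its symbol and no other, and 44 of the 50 genes were measured, out of 14860 genes in all. Of the other 6, Dnajc3 lay only in a row shared with another gene, and Pdia5, Fkbp10, Sec31a, Mia3 and Atf6 had no row of their own. The list and the other gene lists below were chosen with earlier results of these data known. Their counts beside the shares of all genes are therefore descriptions and not independent evidence.

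The study used male wild-type C57BL/6 mice and examined how expression in the ventricle differs in short and long pressure overload. In transverse aortic constriction (TAC) the transverse aorta is tied down with a suture around a needle, which narrows it and raises the load on the left ventricle, and in the sham operation the aorta is not constricted. The groups were Sham, 1 W TAC (1 week after the operation) and 4 W TAC (4 weeks after it), each with 2 mice and 1 array per mouse. Neither labels nor methods state the age of the mice or when the Sham hearts were taken, and no group carries a genetic change. Left ventricle RNA was hybridised to Affymetrix GeneChip Mouse Exon 1.0 ST arrays, whose probes cover the whole transcript, and the values are gene-level log2 signals. A log2 ratio below is the difference between the means of 2 groups, so that a log2 ratio of 1 is a doubling of the signal. Its standard error (SE) and p come from limma, a linear model fitted to all rows of the array together.

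Proteins bound for the cell surface or the extracellular matrix enter the ER through the Sec61 channel, fold there with the help of chaperones, disulfide isomerases and prolyl isomerases, and leave in COPII-coated vesicles. When unfolded proteins build up, the sensors encoded by Ern1, Eif2ak3 and Atf6 start the unfolded protein response, in which the transcription factors Xbp1, Atf4 and cleaved Atf6 raise the genes of chaperones and of ER-associated degradation. In the heart the pathway serves the membrane proteins and peptides of cardiomyocytes as well as the collagens and other matrix proteins secreted by fibroblasts.

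The array medians over genes lay between 5.85 and 6.04, and any pair of arrays correlated over rows with a Pearson r between 0.963 and 0.98. The 6 measured cardiomyocyte markers of 10 listed, among them Tnnt2 and Myl2, had a mean log2 signal between 12.38 and 12.53 on every array. Sham replicate 1 and 4 W TAC replicate 1 stood apart in the brown fat gene Ucp1, with 8.21 and 6.35 against 3.96 to 4.4 on the other 4. Adipoq had 5.27 and 5.29 on these arrays and 3.53 to 3.91 on the others. The fat markers Cidea (7.5 and 7.48, with 7.45 on 1 W TAC replicate 2) and Plin1 (6.5 and 6.67, with 6.55 on 1 W TAC replicate 1) did not set them apart. Sham replicate 1 and 4 W TAC replicate 1 are called the Ucp1-high pair below, and the first counts are also given without them. The number of arrays limits the precision throughout, since an exact two-sided permutation test of 2 arrays against 2 cannot give a p below 0.333.

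Genes with large ratios to Sham at 1 W TAC lay on both sides of 0. The signals of Hspa5, Herpud1, Dnajb9, Hsp90b1, Manf and Hyou1, which serve folding or the disposal of misfolded proteins, were lower than in Sham on both arrays, by log2 ratios between -0.84 and -0.42. The signals of Rcn3, Kdelr3, Sec61b, Creb3l2, Txndc5, Ppib and Tram2, which serve calcium binding, retrieval, translocation, secretory gene control, disulfide formation and proline isomerisation, were higher than in Sham on both arrays, by log2 ratios between 0.685 and 1.305. These genes were picked for the size of their ratios on each side of 0 without a common cutoff, and a difference between roles was not tested. Rcn1, Sec61a1, P4hb, Creb3l1, Calu and Sec24d were also higher than in Sham on both arrays. Their log2 ratios, between 0.44 and 0.645, were larger in size than the -0.42 of Hyou1. Within the same roles other genes went the opposite way, with log2 ratios of 0.13 for Creld1 and 0.025 for Sdf2l1 among the chaperones, and of -0.265 for Canx, -0.125 for Pdia6, -0.185 for Lman1 and -0.07 for Ern1 in the other roles. At 4 W TAC the same comparison gave log2 ratios between 0.09 and 0.75 for the 7 genes from Rcn3 to Tram2 and between -0.8 and -0.12 for the 6 genes with lower signals. RNA of whole ventricle was measured, so fewer cells of a type and less RNA per cell cannot be told apart.

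None of the 44 genes passed limma's adjusted p of 0.05 over all rows in any comparison, where 0% of rows passed as higher and 0.00429% as lower at 1 W TAC and 0% in either direction in 4 W TAC. At an unadjusted limma p under 0.05, 11 of the 44 genes were higher at 1 W TAC, against 7.16% of all genes, and 2 were lower, against 4.87% of all genes. A t-test with a fold above 1.5, the rule that the study names in a legend on splicing factors, gave 5 higher and 1 lower, and none after Benjamini-Hochberg adjustment. In the fit without the Ucp1-high pair the unadjusted counts were 6 higher and 1 lower. The 11 higher genes became 4 when 1 W TAC replicate 2 was left out and 6 when Sham replicate 2 was, and the 2 lower genes became 0 when either Sham replicate 1 or 1 W TAC replicate 2 was left out, 1 for Sham replicate 2 and 4 for either 4 W TAC array. All 4 arrays were separated, with both 1 W TAC arrays above both Sham arrays, for 22 of the 44 genes, against 22.1% of all genes, and with both below for 9 of the 44, against 20.4% of all genes. The signal was more than 1.5-fold higher at 1 W TAC for 10 genes, against 6.78% of all genes, and more than 1.5-fold lower for 3 genes, against 3.73% of all genes. Log2 ratios were above 0 for 32 of the 44 genes, against 51.7% of all genes, and below 0 for 12, against 47.5%. The median log2 ratio was 0.21 over the 44 genes and 0.01 over all 14860 genes.

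**Figure D1:**
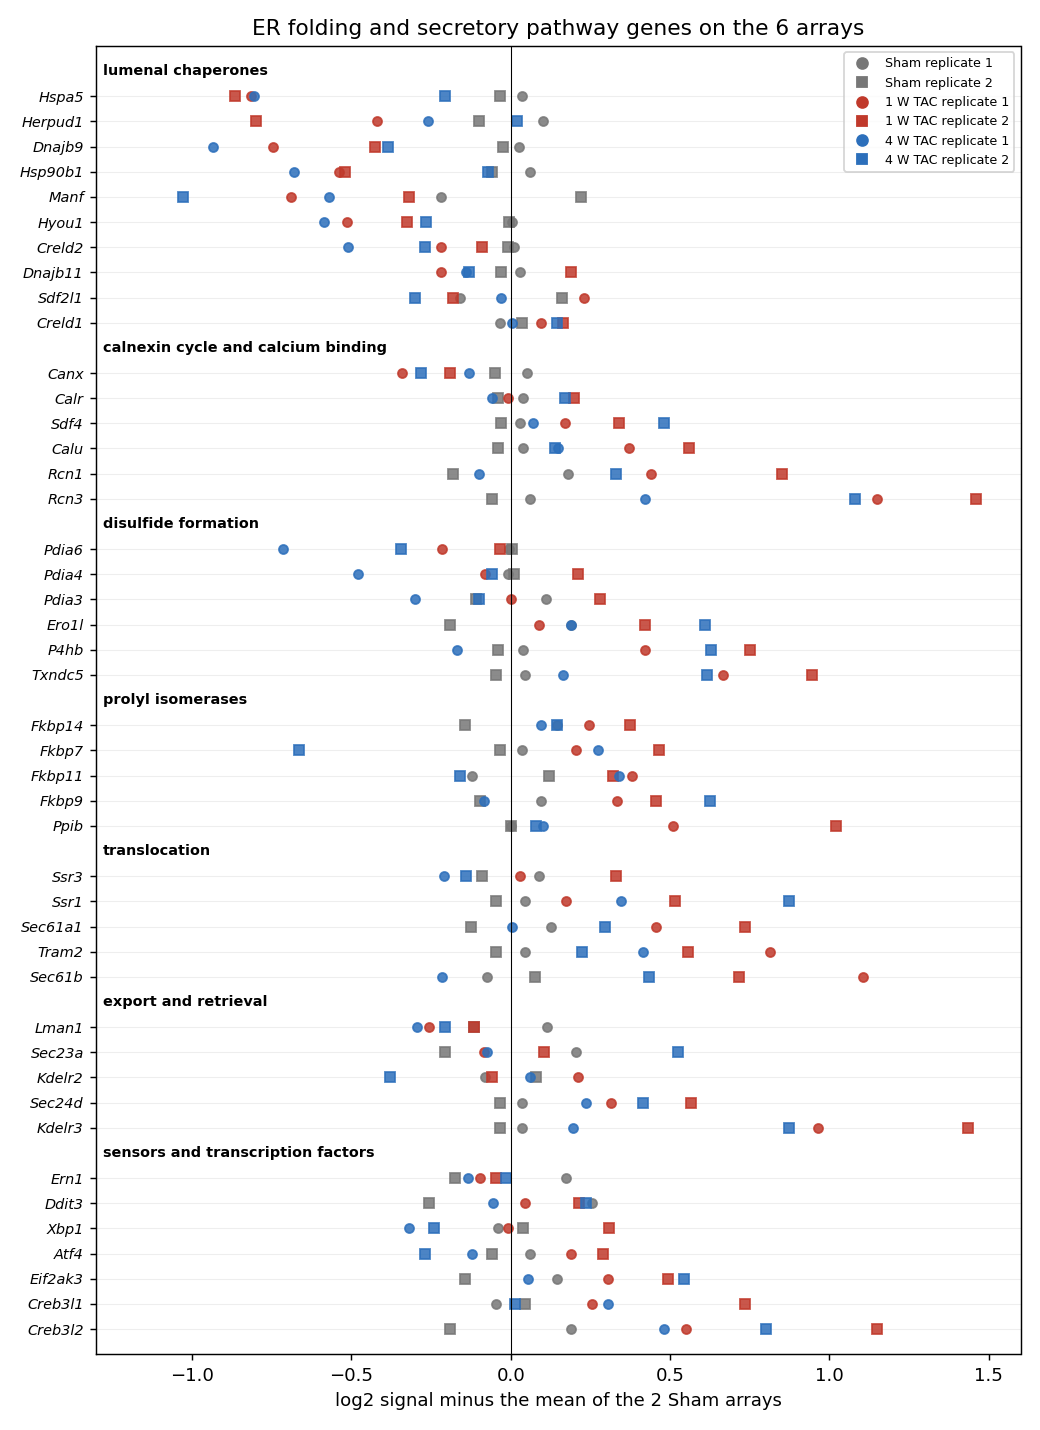
Log2 signal of the 44 measured genes on the 6 arrays, each minus the mean of the 2 Sham arrays of that gene (x axis, log2 units), grouped by role. Circles are replicate 1 and squares replicate 2, in grey for Sham, red for 1 W TAC and blue for 4 W TAC. The red points of Hspa5 lie near -0.84 and those of Rcn3 near 1.305, and 22 genes have both red points to the right of both grey points, 9 to the left.

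Among the 10 measured lumenal chaperones and their partners, 7 had both 1 W TAC arrays below both Sham arrays, against 20.4% of all genes, and 1, Creld1, had both above, against 22.1%. The median log2 ratio of the 10 genes was -0.4625 at 1 W TAC and -0.3825 in 4 W TAC. Hspa5 encodes BiP, the main Hsp70 chaperone of the ER lumen. Its signal was 10.22 and 10.15 in Sham, 9.37 and 9.32 in 1 W TAC, and 9.38 and 9.98 in 4 W TAC. Every TAC array was below every Sham array, and 4 W TAC replicate 2 lay closest to Sham. The log2 ratio to Sham was -0.84 at 1 W TAC (SE 0.23, limma adjusted p = 0.282), a signal 1.79-fold lower. At 4 W TAC the ratio of Hspa5 was -0.505 (limma adjusted p = 0.931). It was -0.17 without the Ucp1-high pair, with 1 array left in each of the 2 groups. The 4 W TAC ratios of Rcn1 and P4hb, which were above 0, were larger without the pair.

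Herpud1 encodes an ER membrane protein of ER-associated degradation and is placed here beside the chaperones. Its signal was 9.79 and 9.59 in Sham, 9.27 and 8.89 in 1 W TAC, and 9.43 and 9.71 in 4 W TAC. The 1 W TAC arrays were the lowest of the 6, and the 4 W TAC arrays overlapped with Sham. The log2 ratio was -0.61 at 1 W TAC (SE 0.21, limma adjusted p = 0.372) and -0.12 in 4 W TAC (adjusted p = 0.985).

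Dnajb9 encodes ERdj4, a J-domain partner of BiP, and had signals of 9.6 and 9.55 in Sham, 8.83 and 9.15 in 1 W TAC, and 8.64 and 9.19 in 4 W TAC. Both TAC groups were below Sham without overlap and overlapped with each other. The log2 ratio of Dnajb9 was -0.585 at 1 W TAC (SE 0.24, limma adjusted p = 0.453) and -0.66 in 4 W TAC (adjusted p = 0.853). Hsp90b1 encodes Grp94, the Hsp90 of the ER, with signals of 10.67 and 10.55 in Sham, 10.07 and 10.09 in 1 W TAC, and 9.93 and 10.54 in 4 W TAC. One 4 W TAC array was the lowest of the 6 and the other almost reached Sham. The ratio of Hsp90b1 was -0.53 at 1 W TAC (SE 0.24, limma adjusted p = 0.497) and -0.375 in 4 W TAC (adjusted p = 0.967). The latter was -0.01 without the Ucp1-high pair, with 1 array left in each of the 2 groups.

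Manf encodes a small protein that binds BiP and can be secreted. Its signal was 7.87 and 8.31 in Sham, 7.4 and 7.77 in 1 W TAC, and 7.52 and 7.06 in 4 W TAC. The Sham arrays differed from each other, and still every TAC array was below both of them. The Manf ratio was -0.505 at 1 W TAC (SE 0.27, limma adjusted p = 0.565) and -0.8 in 4 W TAC (adjusted p = 0.809). Hyou1 encodes Grp170, a nucleotide exchange factor of BiP, and had 7.73 and 7.72 in Sham, 7.21 and 7.4 in 1 W TAC, and 7.14 and 7.46 in 4 W TAC. The Sham arrays of Hyou1 were nearly equal and above all TAC arrays. Its log2 ratio was -0.42 at 1 W TAC (SE 0.19, limma adjusted p = 0.492) and -0.425 in 4 W TAC (adjusted p = 0.905).

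Creld2, whose product is a soluble ER protein raised by ER stress, had 7.35 and 7.33 in Sham, 7.12 and 7.25 in 1 W TAC, and 6.83 and 7.07 in 4 W TAC. Its TAC arrays were below Sham at both times, with log2 ratios of -0.155 and -0.39. Dnajb11, which encodes the BiP partner ERdj3, and Sdf2l1, a partner of the ERdj proteins, had log2 ratios of -0.015 and 0.025 at 1 W TAC, with 1 W TAC arrays on both sides of Sham. Creld1 had a log2 ratio of 0.13 at 1 W TAC.

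The promoters of chaperone genes hold the ER stress response element (ERSE), to which cleaved Atf6 and Xbp1 bind together with NF-Y. Promoter windows of 300 bases, from 250 before to 50 after the transcription start, were searched on both strands in the RefSeq sequences of mouse build GRCm38.p6, and 41 of the 50 listed genes had a window. ERSE, spelled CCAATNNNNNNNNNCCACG, was found in 7 of these 41 genes (17.1%) and in 37 of 27025 genes with a window (0.137%). Of the 6 measured genes with an ERSE, Hspa5, Hsp90b1, Canx, Creld2 and Pdia6 had log2 ratios below 0 at both times. Of all genes, 47.5% were below 0 at 1 W TAC and 41.7% in 4 W TAC. The ratios of Pdia6 and Creld2 at 1 W TAC were small, -0.125 and -0.155. Calr had ratios above 0 at both times, with overlap. The medians of the 6 genes were -0.21 at 1 W TAC and -0.3825 in 4 W TAC. The 10 other measured genes with an ERSE had a median log2 ratio of 0.08 at 1 W TAC. Of these 10, 7 were above 0, against 51.7% of all genes. The related ERSE-II, which is ATTGG and CCACG with any 1 base between them, was found in 2 of the listed genes, Herpud1 and Dnajb11, and in 12 of 27025 genes (0.0444%). Elements upstream of the start are shown for the measured genes, 5' to 3' on the strand that reads as spelled, in capitals. They lay at chr2:34772020-34772048 (+) for Hspa5, chr10:86705633-86705661 (-) and chr10:86705528-86705556 (+) for Hsp90b1, chr11:50325795-50325823 (-) for Canx, chr15:88819515-88819543 (-) for Creld2, chr12:17266486-17266514 (+) for Pdia6, chr8:84847070-84847098 (+) for Calr and chr8:94386368-94386396 (+) for Herpud1, all upstream of the start.
Hspa5: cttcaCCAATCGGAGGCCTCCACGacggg
Hsp90b1, distal: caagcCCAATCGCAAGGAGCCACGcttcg
Hsp90b1, proximal: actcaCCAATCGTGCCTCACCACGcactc
Canx: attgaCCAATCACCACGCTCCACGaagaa
Creld2: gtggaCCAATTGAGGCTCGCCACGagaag
Pdia6: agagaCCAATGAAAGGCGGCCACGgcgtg
Calr: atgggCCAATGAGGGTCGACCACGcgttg
Herpud1, ERSE-II: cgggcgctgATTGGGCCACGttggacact

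A match of letters is a description of the window and not a measured binding site. Counted from the transcription start, the first base of the element lay at -65 in Hspa5, -98 in Pdia6, -145 in Canx and -52 in Herpud1. Whether the elements had a part in the signals was not tested. The log2 ratio of Calr was 0.095 at 1 W TAC (SE 0.18) and 0.055 in 4 W TAC. Calr, the calcium-binding chaperone calreticulin, had 10.14 and 10.06 in Sham, 10.09 and 10.3 in 1 W TAC, and 10.04 and 10.27 in 4 W TAC, with overlap in both comparisons.

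In the calnexin cycle and among calcium-binding proteins, 5 of 6 genes had log2 ratios above 0 at 1 W TAC, with a median of 0.36. Rcn3, a reticulocalbin of the CREC family of calcium-binding proteins, had the highest log2 ratio of the 44 genes at both times. Its signal was 7.38 and 7.26 in Sham, 8.47 and 8.78 in 1 W TAC, and 7.74 and 8.4 in 4 W TAC. The 3 groups fell in the order Sham, 4 W TAC and 1 W TAC with no overlap between any of them. The log2 ratio of Rcn3 was 1.305 at 1 W TAC (SE 0.27, limma adjusted p = 0.199), a 2.47-fold higher signal, and 0.75 in 4 W TAC (adjusted p = 0.836). When only the 14996 rows with 1 symbol were fitted, Rcn3 was the 1 listed gene to pass at 1 W TAC (adjusted p = 0.0445), against 1.37% of genes that passed as higher and 0.424% as lower in that fit.

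Rcn1, a second reticulocalbin, had 7.42 and 7.06 in Sham, 7.68 and 8.09 in 1 W TAC, and 7.14 and 7.57 in 4 W TAC. Its log2 ratio was 0.645 at 1 W TAC (SE 0.26, limma adjusted p = 0.431) and 0.115 in 4 W TAC, where the arrays overlapped with Sham. Calu, which encodes the CREC protein calumenin, had 10.01 and 9.93 in Sham, 10.34 and 10.53 in 1 W TAC, and 10.12 and 10.11 in 4 W TAC. Both TAC groups of Calu were above Sham, by log2 ratios of 0.465 (SE 0.16, limma adjusted p = 0.371) and 0.145. Sdf4, the CREC member Cab45 of the Golgi, was higher on all TAC arrays with log2 ratios of 0.255 and 0.275. Canx, the membrane chaperone calnexin, differed from its 5 neighbours: it had 9.93 and 9.83 in Sham, 9.54 and 9.69 in 1 W TAC, and 9.75 and 9.6 in 4 W TAC, all TAC arrays being below Sham.

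Kdelr3 encodes one of the receptors that return proteins with a KDEL tail, such as BiP, from the Golgi to the ER. Its signal was 6.11 and 6.04 in Sham, 7.04 and 7.51 in 1 W TAC, and 6.27 and 6.95 in 4 W TAC. The groups did not overlap, and 4 W TAC lay between Sham and 1 W TAC. The log2 ratio of Kdelr3 was 1.2 at 1 W TAC (SE 0.29, limma adjusted p = 0.247), a 2.3-fold higher signal, and 0.535 in 4 W TAC (adjusted p = 0.949). Kdelr2, the gene of a second receptor of this kind, had a log2 ratio of 0.075 at 1 W TAC with overlap.

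Sec24d, a cargo-binding subunit of the COPII coat, had 7.65 and 7.58 in Sham, 7.93 and 8.18 in 1 W TAC, and 7.85 and 8.03 in 4 W TAC. All TAC arrays of Sec24d were above Sham, with log2 ratios of 0.44 (SE 0.18, limma adjusted p = 0.439) and 0.325 (adjusted p = 0.955). Sec23a, its partner in the inner coat, had log2 ratios of 0.01 and 0.225 with overlap at both times. Lman1, which encodes the cargo receptor ERGIC-53, had 8.86 and 8.63 in Sham, 8.49 and 8.63 in 1 W TAC, and 8.45 and 8.54 in 4 W TAC. The 4 W TAC arrays of Lman1 were below Sham, while a 1 W TAC array equalled the lower Sham array.

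Translocation into the ER gave the highest median log2 ratio of any role at 1 W TAC, 0.595 over 5 genes, all above 0. Sec61b, the beta subunit of the Sec61 channel, had 4.54 and 4.69 in Sham, 5.72 and 5.33 in 1 W TAC, and 4.4 and 5.05 in 4 W TAC. The 1 W TAC arrays were the highest and the 4 W TAC arrays fell on either side of Sham. Signals of Sec61b were low, below the lowest array median over genes of 5.85 on every array, and the study's detection filter was not repeated. The Sec61b ratio was 0.91 at 1 W TAC (SE 0.27, limma adjusted p = 0.311), 0.11 in 4 W TAC, and -0.8 between 4 W TAC and 1 W TAC (adjusted p = 0.713). Sec61a1, the pore-forming subunit, had 8.55 and 8.3 in Sham, 8.88 and 9.16 in 1 W TAC, and 8.43 and 8.72 in 4 W TAC. Its 1 W TAC arrays were above Sham and its 4 W TAC arrays overlapped with Sham (log2 ratio 0.595, SE 0.21, limma adjusted p = 0.368).

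Tram2, a translocation-associated protein linked to the synthesis of type I collagen, had 6.29 and 6.2 in Sham, 7.06 and 6.8 in 1 W TAC, and 6.66 and 6.47 in 4 W TAC. The groups of Tram2 did not overlap, and the ratio was 0.685 at 1 W TAC (SE 0.18, limma adjusted p = 0.269) and 0.32 in 4 W TAC (adjusted p = 0.96). Ssr1, a subunit of the translocon-associated protein complex, had 6.59 and 6.5 in Sham, 6.72 and 7.06 in 1 W TAC, and 6.89 and 7.42 in 4 W TAC. Its log2 ratio was larger at 4 W TAC (0.61, limma adjusted p = 0.87) than at 1 W TAC (0.345), and the 2 TAC groups overlapped. Ssr3, a subunit of the same complex, had log2 ratios of 0.18 and -0.175.

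Among the disulfide enzymes, Txndc5 had the highest log2 ratio at 1 W TAC. This thioredoxin-domain protein belongs to the protein disulfide isomerase family, and its signal was 8.17 and 8.08 in Sham, 8.79 and 9.07 in 1 W TAC, and 8.29 and 8.74 in 4 W TAC. Both TAC groups were above Sham and did not overlap with each other. The Txndc5 ratio was 0.805 at 1 W TAC (SE 0.22, limma adjusted p = 0.277) and 0.39 in 4 W TAC (adjusted p = 0.96). P4hb, the disulfide isomerase that is also the beta subunit of collagen prolyl 4-hydroxylase, had 9.29 and 9.21 in Sham, 9.67 and 10 in 1 W TAC, and 9.08 and 9.88 in 4 W TAC. The 4 W TAC arrays of P4hb lay far apart, 1 below and 1 above Sham. Its log2 ratio was 0.585 at 1 W TAC (SE 0.3, limma adjusted p = 0.551) and 0.23 in 4 W TAC.

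Pdia6, a disulfide isomerase that works with BiP, had 8.97 and 8.98 in Sham, 8.76 and 8.94 in 1 W TAC, and 8.26 and 8.63 in 4 W TAC. All TAC arrays of Pdia6 were below Sham, by log2 ratios of -0.125 at 1 W TAC and -0.53 in 4 W TAC (adjusted p = 0.852). Pdia4 had log2 ratios of 0.065 and -0.27, with both 4 W TAC arrays below Sham, and Pdia3, the partner of calnexin and calreticulin, had 0.14 and -0.2 with overlap at both times. Ero1l (now Ero1a), the oxidase that recharges the isomerases, had 0.255 and 0.4, with overlap at both times.

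All 5 measured prolyl isomerases had both 1 W TAC arrays above both Sham arrays, against 22.1% of all genes, and of the 5 only Ppib reached an unadjusted limma p under 0.05. Ppib encodes cyclophilin B, which acts on collagen in the ER. Its signal was 9.24 on both Sham arrays, 9.75 and 10.26 in 1 W TAC, and 9.34 and 9.32 in 4 W TAC. The 1 W TAC arrays were well above the others, and the 4 W TAC arrays were just above Sham. The Ppib ratio was 0.765 at 1 W TAC (SE 0.21, limma adjusted p = 0.282), 0.09 in 4 W TAC, and -0.675 between 4 W TAC and 1 W TAC (adjusted p = 0.7). The FK506-binding proteins Fkbp9, Fkbp11, Fkbp7 and Fkbp14 had log2 ratios between 0.31 and 0.395 at 1 W TAC and between -0.195 and 0.27 in 4 W TAC, where each overlapped with Sham.

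**Figure D2:**
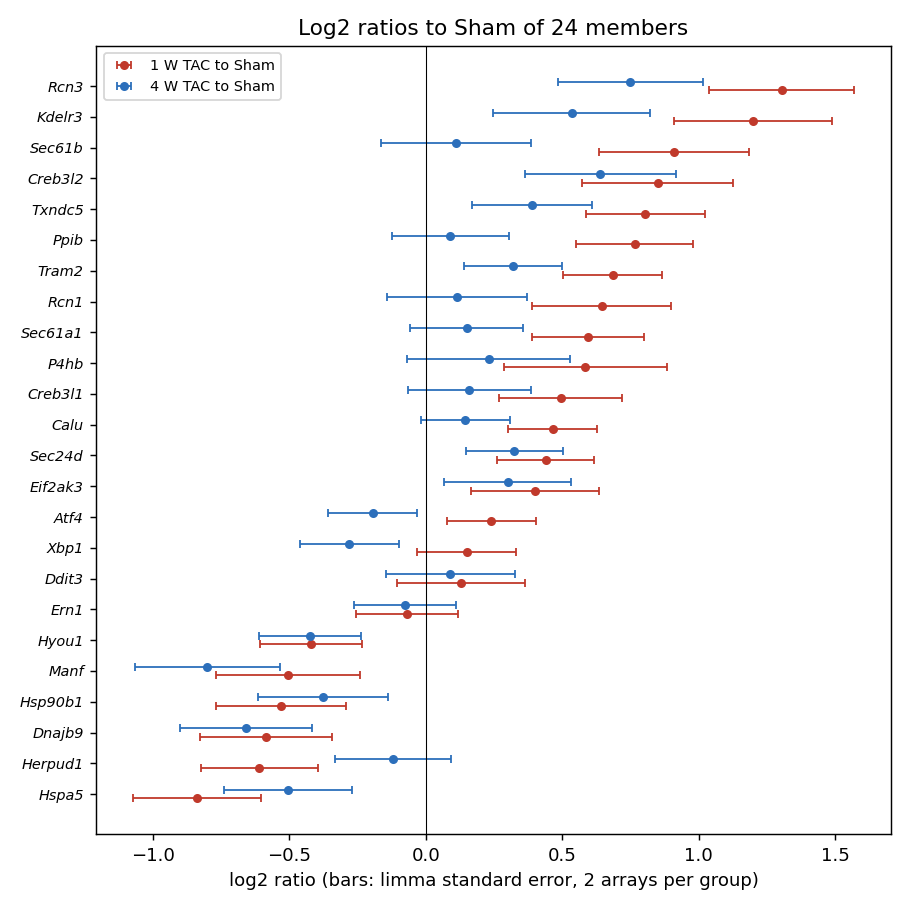
Log2 ratio to Sham (x axis) of the 20 genes with the largest absolute ratio at 1 W TAC and the measured sensors and transcription factors among them or added to them, 24 genes in all. Points are the difference of 2 group means with 2 arrays each, red for 1 W TAC and blue for 4 W TAC, and bars are limma standard errors. Ratios at 1 W TAC run from 1.305 for Rcn3 to -0.84 for Hspa5.

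Among the sensors and transcription factors at 1 W TAC, Xbp1, Atf4, Ddit3 and Ern1 showed small ratios, and Eif2ak3 and the 2 Creb3-like factors showed larger ones. Xbp1, whose mRNA is spliced by the product of Ern1, had 8.14 and 8.22 in Sham, 8.17 and 8.49 in 1 W TAC, and 7.86 and 7.94 in 4 W TAC. The signals at 1 W TAC overlapped with Sham and those in 4 W TAC were below it, with log2 ratios of 0.15 (SE 0.18, limma adjusted p = 0.857) and -0.28 (adjusted p = 0.968). Gene-level values do not separate the spliced from the unspliced form. Ern1, which encodes IRE1 alpha, had 6.56 and 6.21 in Sham, 6.29 and 6.34 in 1 W TAC, and 6.25 and 6.37 in 4 W TAC, and all TAC arrays of this gene lay between the Sham arrays.

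Atf4, the factor translated when the kinases of the integrated stress response are active, had 7.52 and 7.4 in Sham, 7.65 and 7.75 in 1 W TAC, and 7.34 and 7.19 in 4 W TAC. The 1 W TAC arrays were above Sham and the 4 W TAC arrays below, with log2 ratios of 0.24 (SE 0.16, limma adjusted p = 0.685) and -0.195 (adjusted p = 0.972). Ddit3, which encodes CHOP, a factor of the late stress response, had 6.63 and 6.12 in Sham, 6.42 and 6.59 in 1 W TAC, and 6.32 and 6.61 in 4 W TAC. All TAC arrays of Ddit3 lay between its Sham arrays. Eif2ak3, which encodes the sensor kinase PERK, had 6.47 and 6.18 in Sham, 6.63 and 6.82 in 1 W TAC, and 6.38 and 6.87 in 4 W TAC. Its 1 W TAC arrays were above Sham and its 4 W TAC arrays overlapped with Sham, with log2 ratios of 0.4 (SE 0.23, limma adjusted p = 0.613) and 0.3 (adjusted p = 0.971).

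Creb3l2 encodes BBF2H7, an ER membrane factor known in mouse cartilage for raising the COPII gene Sec23a. Its signal was 7.08 and 6.7 in Sham, 7.44 and 8.04 in 1 W TAC, and 7.37 and 7.69 in 4 W TAC. Both TAC groups of Creb3l2 were above Sham and overlapped with each other. The log2 ratio was 0.85 at 1 W TAC (SE 0.28, limma adjusted p = 0.341) and 0.64 in 4 W TAC (adjusted p = 0.899). Creb3l1, its relative OASIS, known in mouse bone for raising type I collagen, had 5.74 and 5.83 in Sham, 6.04 and 6.52 in 1 W TAC, and 6.09 and 5.8 in 4 W TAC. The ratio of Creb3l1 was 0.495 at 1 W TAC (SE 0.23, limma adjusted p = 0.503), with both arrays above Sham, and 0.16 in 4 W TAC with overlap.

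A second stress element, the unfolded protein response element (UPRE), is bound by Xbp1, and its core has the letters that Creb3-like factors also recognise. Spelled TGACGTGG, it was found in the windows of Kdelr3, Sec24d, Txndc5 and Sec23a, which is 4 of 41 genes (9.76%), and in 193 of 27025 genes (0.714%). At 1 W TAC all 4 genes had log2 ratios above 0, against 51.7% of all genes, with a median of 0.6225. At 4 W TAC all 4 were above 0, against 57.3% of all genes, with a median of 0.3575. Sec23a was at 0.01 at 1 W TAC, with arrays that overlapped with Sham. The 115 other measured genes with the same letters had a median of 0.01 at 1 W TAC. A link between letters and signal was not tested. None of the 4 shared a window with an ERSE. The copy of Sec23a lay after the start and is not shown. The 3 upstream copies are shown with the 8 bases in capitals. They lay at chr15:79516367-79516396 (-) for Kdelr3, chr3:123267459-123267488 (+) for Sec24d and chr13:38528034-38528063 (-) for Txndc5.
Kdelr3: tggccgcgcggTGACGTGGcggggcggcca
Sec24d: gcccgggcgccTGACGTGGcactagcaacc
Txndc5: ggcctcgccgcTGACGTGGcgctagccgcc

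These letters, too, are a description of the window. The amino acid response letters TGATGCAA, bound by Atf4 together with a C/EBP factor, were found in 1 listed gene, Herpud1, and in 279 of 27025 genes (1.03%).

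**Figure D3:**
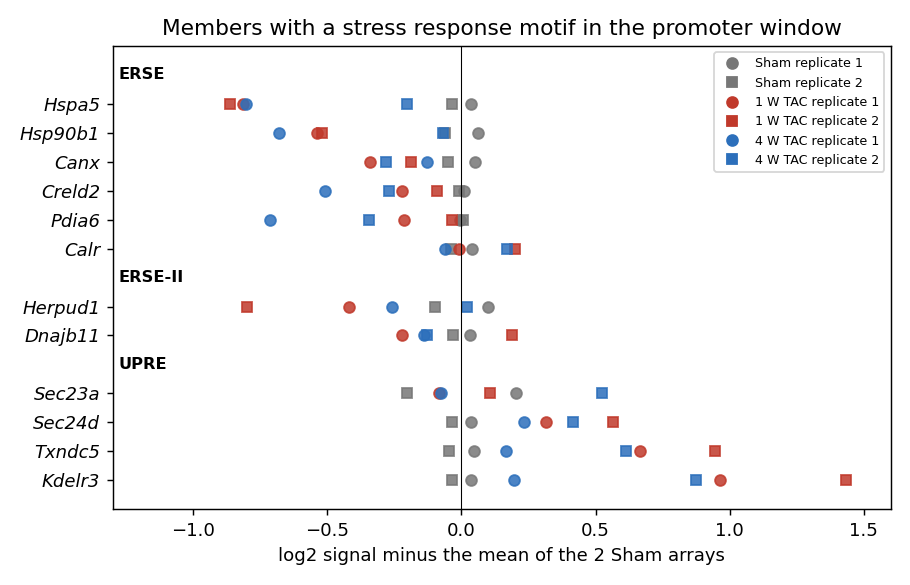
Log2 signal on the 6 arrays minus the Sham mean (x axis, log2 units) of the 12 measured genes whose promoter window holds ERSE, ERSE-II or UPRE, grouped by element. Circles are replicate 1 and squares replicate 2, in grey for Sham, red for 1 W TAC and blue for 4 W TAC. At 1 W TAC 5 of 6 ERSE genes have ratios below 0, against 47.5% of all genes. All 4 UPRE genes have ratios above 0, against 51.7% of all genes, with Sec23a at 0.01.

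At 4 W TAC an unadjusted limma p under 0.05 was reached by 2 genes as higher, Rcn3 and Ssr1, against 2.42% of all genes, and by 3 as lower, Manf, Dnajb9 and Pdia6, against 1.39% of all genes. The study's t-test with its fold limit gave 0 in each direction, and without the Ucp1-high pair the limma counts were 3 higher and 1 lower. Leaving out single arrays gave 0 higher genes for Sham replicate 1, Sham replicate 2 or 4 W TAC replicate 2 and 4 for 4 W TAC replicate 1, and gave 1, 0 and 5 lower genes for Sham replicate 1, Sham replicate 2 and 4 W TAC replicate 2. Arrays without overlap were found for 10 genes as higher, against 17.3% of all genes, and for 14 genes as lower, against 12.9% of all genes. A fold above 1.5 was reached by 3 genes as higher, against 2.55% of all genes, and by 2 as lower, against 1.35% of all genes. The median log2 ratio was 0.0825 over the 44 genes and 0.04 over all genes. It became -0.0675 when 4 W TAC replicate 2 was left out and -0.015 when Sham replicate 2 was. Of the 44 genes, 24 were above 0, against 57.3% of all genes, and 20 below, against 41.7%. The 2 ratios to Sham share the Sham arrays, so they are set side by side and not counted as separate evidence.

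**Figure D4:**
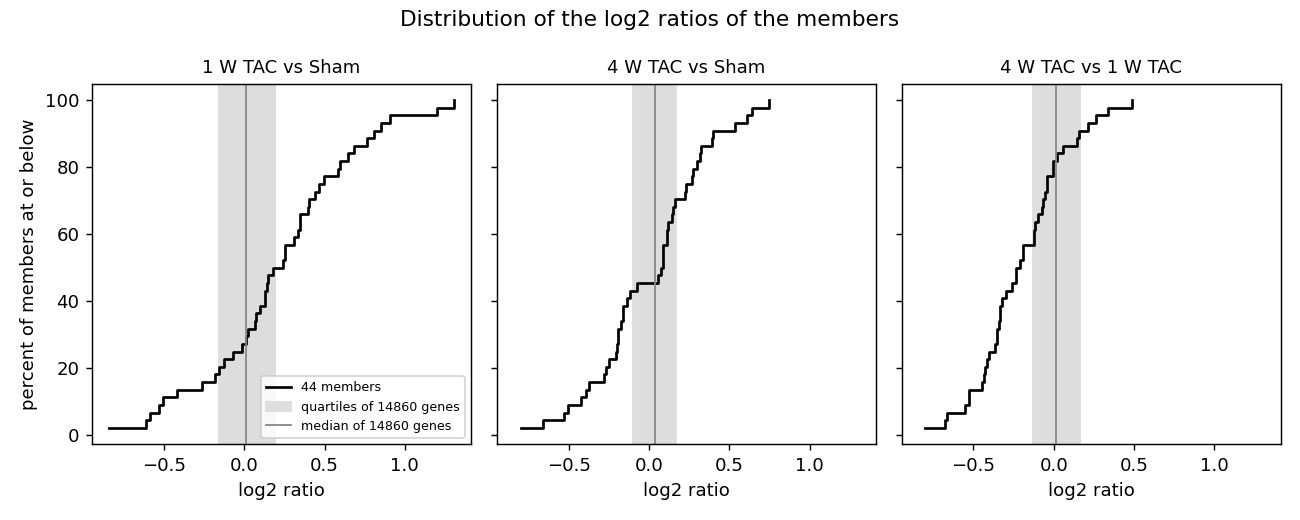
Percent of the 44 genes (y axis) with a log2 ratio at or below the value on the x axis, for the 3 comparisons. The grey band spans the quartiles and the grey line the median of all 14860 genes. The medians of the 44 genes are 0.21, 0.0825 and -0.2225 from left to right.

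The direct comparison of 4 W TAC with 1 W TAC asks how the signals differ between short and long overload. Log2 ratios were below 0 for 36 of the 44 genes, against 46.7% of all genes, and above 0 for 8, against 52.3%, with a median of -0.2225 against 0.015 over all genes, and the median was -0.12 without the Ucp1-high pair. At an unadjusted limma p under 0.05, 3 genes were lower (Sec61b, Ppib and Atf4), against 3.33% of all genes, and 0 were higher, against 2.46% of all genes, and no gene passed the adjusted p, against 0% of rows in either direction. The study's t-test with its fold limit gave 0 lower genes. With single arrays left out the 3 lower genes became 1 for 1 W TAC replicate 2 or 4 W TAC replicate 1 and 6 for 4 W TAC replicate 2, the higher genes became 1 for replicate 1 of either group, and the median became -0.1175 for 1 W TAC replicate 2. A fold above 1.5 was reached by 3 genes as lower, against 3.66% of all genes, and by 0 as higher, against 2.17%. Arrays without overlap were found for 16 genes as lower, against 16.6% of all genes, and for 2 as higher, against 20.3% of all genes. The latter were Hspa5, with a log2 ratio of 0.335 (adjusted p = 0.893), and Herpud1, with 0.49 (adjusted p = 0.789). For Hspa5 the separation was small, with 9.38 on a 4 W TAC array and 9.37 on a 1 W TAC array.

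The 2 arrays of a TAC group were not alike for these genes. In 1 W TAC, replicate 2 was the higher array for 37 of the 44 genes, by a median of 0.19, against 9308 of all 14860 genes. In 4 W TAC it was higher for 33 of the 44 genes, by a median of 0.26, against 8369 of all genes. In Sham it was higher for 10 of the 44 genes, with a median difference of -0.08, against 5906 of all genes. Over all genes the median differences were -0.08 in Sham, 0.08 in 1 W TAC and 0.05 in 4 W TAC. The median absolute difference between the arrays of a group was 0.11 in Sham, 0.265 in 1 W TAC and 0.32 in 4 W TAC for the 44 genes, and 0.23, 0.18 and 0.2 for all genes. Kdelr3 and Creb3l2 were higher in replicate 2 of both TAC groups, while Tram2 was lower in replicate 2 of both, Sec61b was lower in replicate 2 of 1 W TAC and Ppib in replicate 2 of 4 W TAC.

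Markers of some cell types, but not of all, moved with these groups. Of the 12 fibroblast markers, all measured, 11 had log2 ratios above 0 at 1 W TAC and 12 in 4 W TAC, with medians of 0.8575 and 0.52. The mean log2 signal of the list was 8.332 and 8.283 in Sham, 9.588 and 9.755 in 1 W TAC, and 8.953 and 9.149 in 4 W TAC, which is the order in which Rcn3, Kdelr3 and Txndc5 also lay. Of 8 macrophage markers 7 were measured, and their mean was 6.58 and 6.36 in Sham, 7.444 and 7.837 in 1 W TAC, and 6.673 and 6.941 in 4 W TAC. The 6 measured B and plasma cell markers of 7 listed, cells rich in ER, had means of 4.55 and 4.547 in Sham, 4.973 and 4.807 in 1 W TAC, and 4.67 and 4.707 in 4 W TAC. All 6 had log2 ratios above 0 at 1 W TAC, with a median of 0.1925 and the highest, 0.855, for Sdc1. Only 3 of the 6 had both 1 W TAC arrays above both Sham arrays, against 22.1% of all genes. The means of this list were low, below the lowest array median over genes of 5.85. The 6 cardiomyocyte markers had median log2 ratios of -0.0625 at 1 W TAC and -0.0925 in 4 W TAC. At the same times the 6 endothelial markers had medians of -0.165 and 0.2075. The 5 markers of smooth muscle cells and pericytes had medians of 0.005 and 0.24. No array value is a true 0, so none of these markers can be called absent, and their part in the results on the ER genes was not tested.

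**Figure D5:**
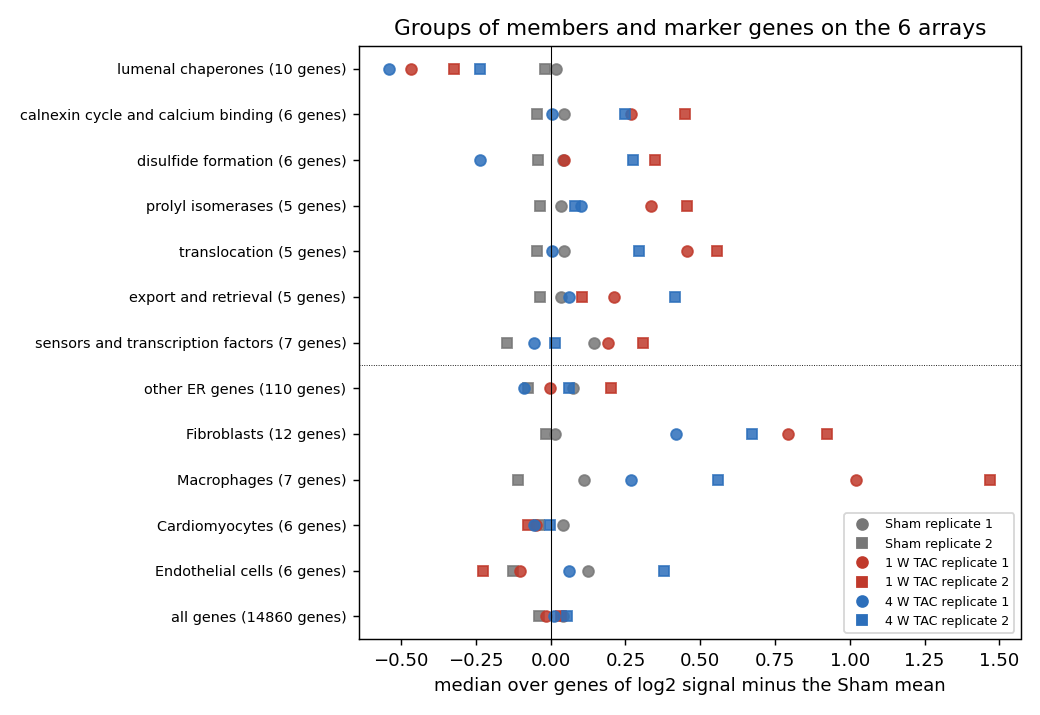
Median over genes of the log2 signal minus the Sham mean (x axis, log2 units) on each of the 6 arrays, for the 7 roles (above the dotted line) and for other ER genes, cell type markers and all genes (below it). Circles are replicate 1 and squares replicate 2, in grey for Sham, red for 1 W TAC and blue for 4 W TAC. The lumenal chaperones lie at -0.4675 and -0.3225 in 1 W TAC, while fibroblast markers lie at 0.7925 and 0.9225.

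A wider list of ER genes, for oligosaccharide transfer, other folding enzymes, ER-associated degradation, vesicle coats and the stress response, had 110 measured genes of 130 listed. Their median log2 ratio was 0.09 at 1 W TAC and 0 in 4 W TAC. At an unadjusted limma p under 0.05, 8 of the 110 were higher at 1 W TAC (7.27%, against 7.16% of all genes) and 2 lower (1.82%, against 4.87%), so the share of higher genes was near that of all genes, and none passed the adjusted p. The 3 highest were Ppic, Atf3 and Qsox1. Ppic encodes the ER cyclophilin C, a relative of Ppib, and had 8.33 and 8.36 in Sham, 9.84 and 10.4 in 1 W TAC, and 9.11 and 8.38 in 4 W TAC (log2 ratio 1.775 at 1 W TAC, limma adjusted p = 0.173). The stress factor Atf3 had 5.87 and 5.92 in Sham, 6.76 and 7.09 in 1 W TAC, and 6.14 and 6.06 in 4 W TAC. Qsox1, an oxidase that forms disulfide bonds in secreted proteins, had a log2 ratio of 1.015 at 1 W TAC. All 3 had both 1 W TAC arrays above Sham. The 3 lowest were Magt1, a subunit of the oligosaccharyltransferase, with -0.77 (limma adjusted p = 0.409), the thioredoxin-related membrane protein Tmx2 with -0.59 (adjusted p = 0.301), and the vesicle fusion protein Bet1 with -0.555 (adjusted p = 0.625).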

How the data were processed

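Log2 signals of the 6 arrays were used as deposited. The authors made these log2 values with RMA in Affymetrix Expression Console, which corrects background, normalizes between arrays and summarises probes per gene. The version, genome build and annotation were not given in the sources used here. RNA was extracted with Trizol per the labels and with a column kit per the methods. The table held 23332 rows, of which 14996 carried 1 gene symbol, and each of the 14860 genes was represented by its row with the highest mean. Ero1l was matched through an older symbol. The detection filter of the study was not repeated.

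One mean per group was fitted with limma 3.58.1 in R 4.3.3 (lmFit, eBayes), with 3 residual degrees of freedom and a prior of 2.68, and Benjamini-Hochberg adjustment over all rows. The procedure was tested on simulated data. Full statistics are given for the 20 genes with the largest absolute log2 ratio at 1 W TAC and for the measured sensors and factors, 24 in all, and the 3 highest and 3 lowest of the wider list are named. The members and lists were chosen with earlier results of these data known. Labels and methods give 2 mice per group and no further relation between them. Promoter motifs were searched with Python 3.11.15, and plots were drawn with matplotlib 3.10.9. Alternatives covered rows fitted, low signal, variance prior, groups fitted, replicate block, normalization, row per gene, arrays left out and the study's t-test, which a legend on splicing factors names.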

Additional observations from a re-analysis of the deposited data

Results flagged for a closer look

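Atf4 stood out because the 2 TAC groups lay on opposite sides of Sham. Both 1 W TAC arrays were above both Sham arrays, with a log2 ratio of 0.24, and both 4 W TAC arrays were below them, with a log2 ratio of -0.195. The direct comparison of 4 W TAC with 1 W TAC gave a log2 ratio of -0.435 (limma adjusted p = 0.742).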

How the results depend on the processing

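With 2 arrays per group, the counts at an unadjusted p depend on single arrays, and separation of 4 arrays becomes easier when 1 is removed. No gene passed the adjusted test in any setting, except 1 as higher at 1 W TAC, Rcn3, when only rows with 1 gene symbol or only rows at or above the median signal were fitted. Array files carry no read depth, and signal over background was not analysed here. Over the 24 genes with full statistics and 3 comparisons, 1221 values were compared with the main fit. Under other settings 774 kept their direction and side of the threshold, 13 turned, and 2, both of Rcn3, came to pass the adjusted p. Without 1 array 408 kept their direction and 24 turned. Many of the other settings change only the rows or the spread and leave the log2 ratio as it is. Direction could not turn in those, so the counts do not measure robustness. Where a direction turned, the cause was not tested.

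The following counts are at an unadjusted p under 0.05. At 1 W TAC the 11 higher genes became 7 with the replicate block, 6 without the Ucp1-high pair (Sham 1 and 4 W TAC 1, the pair below), and 5 by the study's t-test with its fold limit. The 2 lower genes became 5 with rows of 1 symbol or with an intensity trend, 4 with the signal filter, with only 2 groups fitted, with median centring or with renewed quantile normalization, and 1 with the replicate block, without the pair or by the t-test. At 4 W TAC the 2 higher genes became 0 by the t-test, and the 3 lower genes became 6 with rows of 1 symbol, 5 with the trend or quantile normalization, 1 without the pair and 0 by the t-test. Between 4 W TAC and 1 W TAC the 0 higher genes became 1 with rows of 1 symbol, the signal filter, the trend or without the pair, and the 3 lower genes became 6, 5, 12, 1 and 0 with rows of 1 symbol, the trend, quantile normalization, without the pair and by the t-test. Without the pair, the genes without overlap became 25 as higher at 4 W TAC and 13 as higher against 1 W TAC. The 25 is only the number of genes with a higher signal on 4 W TAC replicate 2 than on Sham replicate 2. The 13 compares 1 array of 4 W TAC with 2 of 1 W TAC. Fewer arrays make separation easier, so neither count is a stronger result than the 10 and 2 with all arrays. Shares of all genes are not given beside them. With all arrays and quantile normalization, 1 gene was higher without overlap against 1 W TAC. Without the pair, the median against 1 W TAC became -0.12.

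The replicate numbers stand in the titles only. Deviations of same-numbered arrays correlated at -0.2 for Sham and 1 W TAC, -0.267 for Sham and 4 W TAC and 0.145 for both TAC groups, so the numbers were not taken as pairs. With the Sham numbers exchanged in the replicate block, an alternative chosen after seeing the data, the counts were 4 lower at 1 W TAC, 4 higher and 5 lower at 4 W TAC, and 7 lower between the TAC groups.

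Leaving out 1 array at a time gave 4 to 10 higher genes (4 without 1 W TAC replicate 2, 6 without Sham replicate 2) and 0 to 4 lower genes at 1 W TAC (0 without Sham replicate 1 or 1 W TAC replicate 2), 0 to 4 and 0 to 5 at 4 W TAC, and 0 to 1 and 1 to 6 between the TAC groups. A lone array was assumed to vary like the other groups. Higher genes without overlap ranged from 10 to 20 at 4 W TAC and from 2 to 13 between the TAC groups. The medians ranged from 0.1725 to 0.315, from -0.0675 to 0.0825 and from -0.2475 to -0.1175.

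Directions turned as follows when 1 array was left out. At 1 W TAC the ranges were -0.01 to 0.31 for Xbp1, -0.125 to 0.385 for Ddit3 and -0.245 to 0.105 for Ern1. At 4 W TAC they were -0.215 to 0.435 for Sec61b, -0.1 to 0.33 for Rcn1, -0.17 to 0.63 for P4hb, -0.165 to 0.345 for Ddit3, -0.25 to 0.1 for Ern1 and -0.26 to 0.02 for Herpud1. Between 4 W TAC and 1 W TAC they were -0.51 to 0.09 for Creb3l2, -0.755 to 0.045 for P4hb, -0.24 to 0.01 for Sec24d, -0.345 to 0.145 for Eif2ak3, -0.185 to 0.105 for Ddit3, -0.065 to 0.055 for Ern1, -0.165 to 0.155 for Hyou1, -0.15 to 0.46 for Hsp90b1 and -0.35 to 0.2 for Dnajb9. Without the pair, Ern1 turned in all 3 comparisons, to 0.105, 0.16 and 0.055. At 4 W TAC Creb3l1 turned to -0.03 and Herpud1 to 0.12. Between the TAC groups P4hb turned to 0.045, Eif2ak3 to 0.145, Ddit3 to 0.105, Hyou1 to 0.155 and Dnajb9 to 0.2. Rcn1, P4hb and Ddit3 kept their direction at 4 W TAC without the pair, at 0.51, 0.67 and 0.49. With median centring Ern1 and Hyou1 were at 0.025 between the TAC groups, and with quantile normalization Ern1 was at 0.00417.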
